A study of Mus musculus with 6 samples.

Results

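The genes described here are 36 that encode enzymes and regulators of cholesterol, fatty acid and galactolipid synthesis, the lipids from which myelin is built. They were taken from a list chosen with earlier results of these data known. Shares of the list set beside those of all tested genes are therefore description and not a test. Each gene was read on the array through the probe set of highest mean among those naming the gene alone. Names ending in _x_at were used only where no other existed. Of the 36, 35 had such a probe set, out of 18193 genes represented on the array, and all 35 were among the 12958 genes bright enough to be tested. Acat2 had none and is named only. The list holds 18 genes of sterol steps, 15 of fatty acid and galactolipid steps and the 3 regulators Insig1, Srebf1 and Srebf2.

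Expression was measured on 6 Affymetrix mouse arrays, 1 per nucleus and age, in male C57BL/6J mice with no treatment named. The nuclei, taken by hand from brainstem slices of 200 µm, were VCN (the ventral part of the cochlear nucleus), LSO (the lateral superior olive) and MNTB (the medial trapezoid body nucleus). Each array held a pool, of 6 animals at postnatal day 3 (P3) and of 3 at postnatal day 14 (P14), so age went together with pool size. The repeats behind every age test are the 3 nuclei, and p-values measure repetition over nuclei, not over animals. The sources used here do not say which arrays were processed together, so age cannot be told apart from anything technical that separated the ages.

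Levels are log2 units, in which a difference of 1 is a doubling, and a level of one gene's probe set cannot be set against that of another. The array medians ran from 6.27 to 6.31. The 3 unspiked control sets read 2.84 to 4.42, and the lowest value of any lipid gene was 6.73. The difference between the 3' and 5' probe sets of Gapdh, which tends to grow as RNA quality falls, was 1.21 to 1.41 at P3 and 1.06 to 1.11 at P14. The glycine transporter gene Slc6a5 was highest in MNTB at both ages (12.50 and 13.02). Ttr, a choroid plexus gene, read 12.58 on the VCN array of P14 and 6.61 to 6.93 on the others. Leaving out that array left the count of lipid genes that rose with age at 28.

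Myelin is a lipid-rich membrane that oligodendrocytes wrap around axons, and cholesterol is a limiting component of it. Brain cholesterol is made locally rather than taken from blood. It is built from acetyl-CoA through mevalonate, squalene and lanosterol, under the transcription factors SREBP1 and SREBP2 (Srebf1, Srebf2), which Insig proteins hold back in the endoplasmic reticulum when sterol is plentiful. The galactolipids of myelin, galactosylceramide and sulfatide, are built on ceramides with very long and often hydroxylated fatty acids. Thick axons of the auditory brainstem are myelinated in the early postnatal weeks.

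Between P3 and P14 most of the lipid synthesis genes rose. Of 35 tested, 28 were higher at P14 and 0 were lower (limma with age and nucleus as terms, adjusted p under 0.05 over all tested genes). The same test called 23.4% of all tested genes higher and 17.7% lower. With arrays centred on the median of the tested genes, the split over all genes turned from 3029 higher and 2288 lower to 2432 higher and 3004 lower, while 26 lipid genes were still called higher and 0 lower. The median change of the lipid genes was 0.74 log2 units, against 0.03 for all tested genes. In 27 of 35 every P14 array lay above every P3 array, which was so for 30.3% of tested genes. Leaving out either array of a nucleus takes that nucleus out of the age contrast. A call can then be lost through fewer arrays alone. Without either MNTB array the number that passed was 23, and without either LSO array it was 25.

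**Figure D1:**
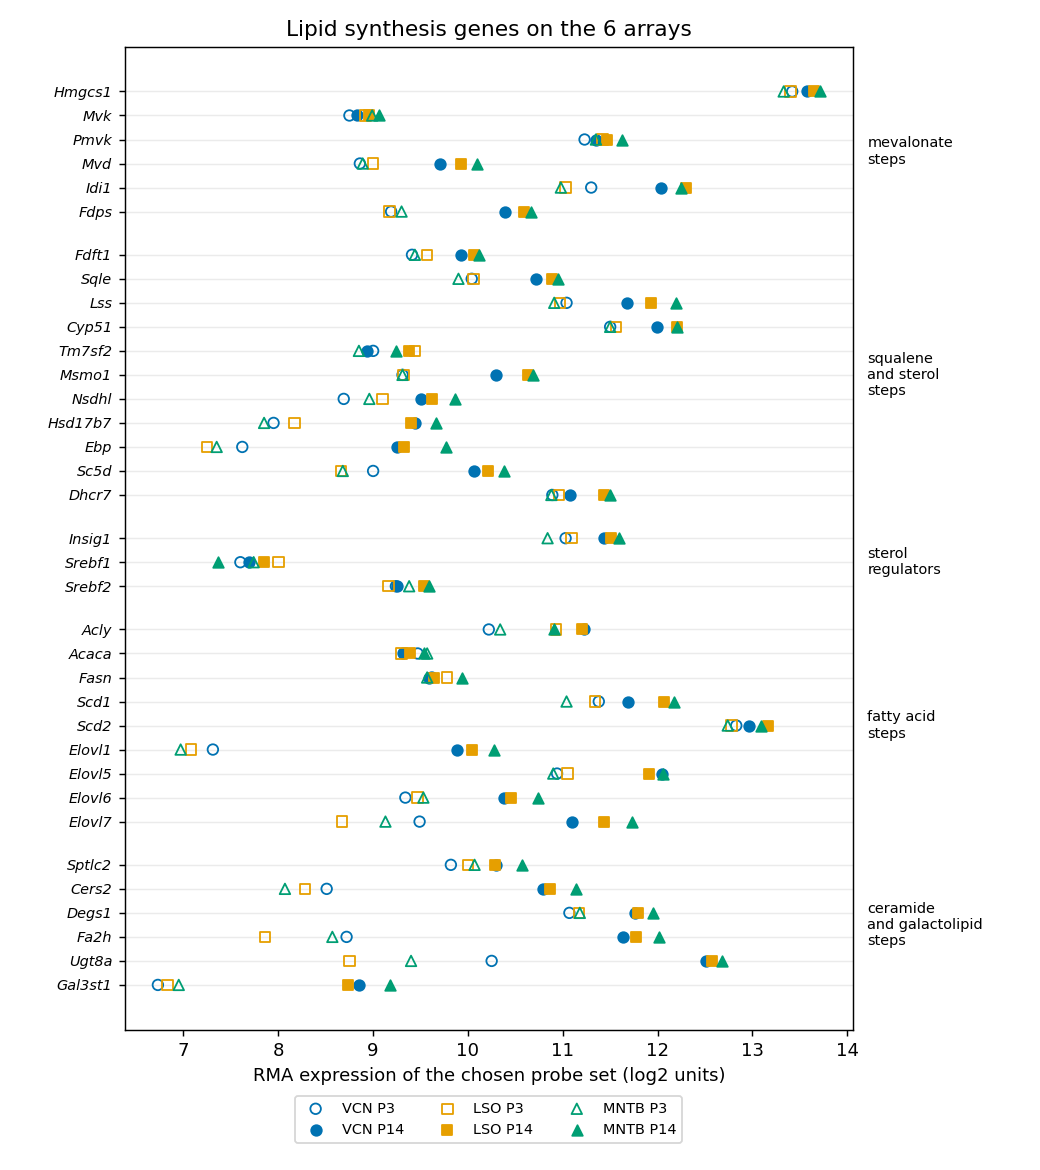
Level of the chosen probe set of each of 35 lipid synthesis genes (x axis, log2 units) on the 6 arrays, with P3 as open and P14 as filled symbols and a shape for each nucleus. Levels can be compared along a row, not between rows. The ages lie apart in 27 rows, and the mean differences are largest for Fa2h, Ugt8a, Elovl1, Cers2 and Elovl7.

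The sterol pathway starts with mevalonate. Here 4 of 6 measured genes rose and 2 did not pass, with a median change of 0.63. Fdps, which makes farnesyl diphosphate, the branch point to sterols, read 9.19, 9.17 and 9.30 at P3 (in the order VCN, LSO and MNTB, kept from here on) and 10.39, 10.59 and 10.67 at P14. The ages were clearly apart and the nuclei close together, giving a rise of 1.33 ± 0.09 log2 units (SE, 3 nuclei, adjusted p = 0.000461), or 2.52-fold. Averaged with its other, dim probe set, Fdps rose by 0.69 (adjusted p = 0.00481). Idi1, which interconverts the basic isoprenoid units, read 11.30, 11.03 and 10.98 at P3 and 12.04, 12.30 and 12.25 at P14. Every P14 array lay above every P3 array, and Idi1 rose by 1.09 ± 0.12 (adjusted p = 0.00145). Mvd, whose enzyme produces the first of those units, went from 8.86, 9.0 and 8.89 to 9.71, 9.93 and 10.10, a rise of 1.0 ± 0.11 (adjusted p = 0.00147).

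Hmgcs1, the synthase that makes HMG-CoA, read 13.42, 13.40 and 13.33 at P3 and 13.58, 13.65 and 13.71 at P14. The ages did not overlap, but the rise of 0.27 ± 0.06 (adjusted p = 0.0125) was small and did not pass without either MNTB array (0.21, highest adjusted p = 0.131). The chosen probe set of Hmgcs1 is the brightest of 5. The 3 others with means of 11.26 to 11.97 gave changes of 0.65 to 0.68, and a dim one gave 0.15, so that the median of the sets was 0.65 (adjusted p = 0.00191). The 2 kinases between HMG-CoA and Mvd showed no call. Mvk, mevalonate kinase, had a difference of 0.07 (95% interval -0.17 to 0.30, adjusted p = 0.612), and Pmvk, phosphomevalonate kinase, one of 0.15 (-0.03 to 0.32, adjusted p = 0.161). The arrays of the 2 ages overlapped for both.

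From squalene to cholesterol, 10 of 11 genes rose, and all 10 had P14 above P3 on every array. The median change was 0.85, or 1.81-fold. Ebp, the sterol isomerase that moves a ring double bond, read 7.62, 7.25 and 7.35 at P3 and 9.25, 9.33 and 9.77 at P14. Its rise of 2.05 ± 0.17 (adjusted p = 0.000704), or 4.13-fold, was larger than that of any other sterol gene of the list. Hsd17b7, a keto-reductase of the demethylation complex, went from 7.95, 8.17 and 7.85 to 9.44, 9.40 and 9.66, a rise of 1.51 ± 0.14 (adjusted p = 0.000901). For both genes the gap between the ages was wider than the range over nuclei at either age. Sc5d, the desaturase that acts after Ebp, went from 9.0, 8.66 and 8.68 to 10.06, 10.21 and 10.38 and rose by 1.43 ± 0.14 (adjusted p = 0.00111). Msmo1, the methylsterol oxidase that opens demethylation, read 9.31 to 9.32 in the 3 nuclei at P3 and 10.30, 10.63 and 10.69 at P14, a rise of 1.22 ± 0.11 (adjusted p = 0.000826). Msmo1 stood at 0.45 when averaged with its other, dim probe set (adjusted p = 0.0229).

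Other steps of this stretch had smaller rises. Lss, which closes the rings to lanosterol, rose by 0.96 ± 0.12, Sqle, the squalene epoxidase, by 0.85 ± 0.10, and Nsdhl, the dehydrogenase of the demethylation complex, by 0.74 ± 0.11 (adjusted p = 0.0018 to 0.00411). The lanosterol demethylase gene Cyp51 rose by 0.61 ± 0.07 and the squalene synthase gene Fdft1 by 0.56 ± 0.09. Fdft1 did not pass when the median of its 4 probe sets was used (0.27, adjusted p = 0.0786). Dhcr7, the reductase of a final step, rose by 0.43 ± 0.10 (adjusted p = 0.0185). That call was lost without either MNTB array (highest adjusted p = 0.115) and without either LSO array (0.0826). Tm7sf2, a sterol reductase, was the member of this stretch without a call. It read 9.0, 9.44 and 8.85 at P3 and 8.94, 9.38 and 9.24 at P14. Its differences were -0.06, -0.06 and 0.39 (mean 0.09, 95% interval -0.22 to 0.40). Its highest level at each age was in LSO.

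**Figure D2:**
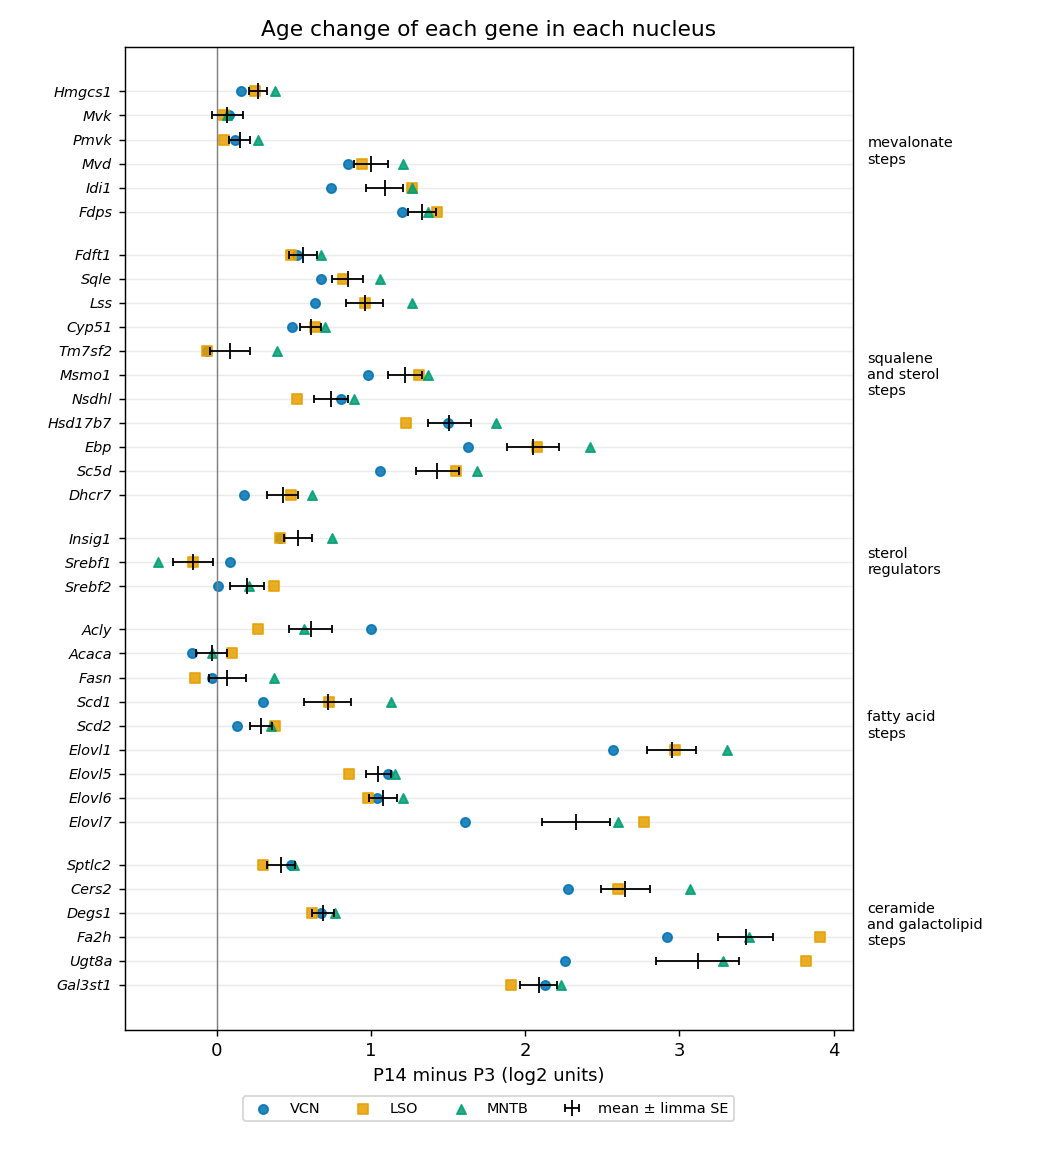
Difference between P14 and P3 (x axis, log2 units) for each of 35 genes, in VCN, LSO and MNTB, with a black tick and bar for the mean and its limma standard error over 3 nuclei. The 7 genes without a call are Mvk, Pmvk, Tm7sf2, Srebf1, Srebf2, Acaca and Fasn, and the MNTB triangle lies farthest right in 14 of 17 sterol rows.

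Of the 3 regulators, 1 rose and 2 did not pass, with a median change of 0.20. Insig1 read 11.03, 11.09 and 10.84 at P3 and 11.44, 11.51 and 11.59 at P14 and rose by 0.53 ± 0.09 (adjusted p = 0.00715). Srebf2, the main factor for sterol genes, had a difference of 0.20 (95% interval -0.07 to 0.46, adjusted p = 0.192). Srebf1, the main factor for fatty acid genes, had one of -0.15 (-0.48 to 0.18, adjusted p = 0.411), made up of 0.09, -0.15 and -0.38. The levels of the 2 ages overlapped for both factors. Transcript levels of these factors say nothing of their cleavage, which sets their activity and was not measured.

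Promoter sequences are shown for 6 genes because most sterol genes rose together. SREBP binds the sterol regulatory element and works with NF-Y, which binds CCAAT boxes. RefSeq promoter windows of 300 bases (250 before the start and 50 after it, GRCm38.p6) were found for 30 of the 36 genes and not for Fdps, Fdft1, Sqle, Scd1, Scd2 and Fa2h. Both strands were searched for CCAAT, for TCACNCCAC (a core of the sterol element) and for CTGGCAC (a motif of the oligodendrocyte factor Myrf). CCAAT was present for 14 of 15 sterol genes, 7 of 12 fatty acid and galactolipid genes and 3 of 3 regulators, against 41.1% of 27025 genes with a window. Acat2 was the sterol gene without it. TCACNCCAC was found for Hmgcs1 alone (1.44% of all genes) and CTGGCAC for Srebf1 alone (5.73%). By age call, CCAAT was present for 18 of 22 genes that rose and 6 of 7 that did not pass. A match of letters does not show that a factor binds, and no match says only that the letters are not in this window.

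Capitals mark the matches on either strand, which do not overlap in these windows. Hmgcs1 holds the sterol element and 4 CCAAT boxes, Hsd17b7 holds 3 and Ebp 2. Mvk, whose level did not pass for age, holds 5. Elovl1 has 1 in the window shown (the gene has 2 windows), and Ugt8a has none of the motifs.
Hmgcs1, GRCm38.p6 chr13:119690101-119690400, plus strand: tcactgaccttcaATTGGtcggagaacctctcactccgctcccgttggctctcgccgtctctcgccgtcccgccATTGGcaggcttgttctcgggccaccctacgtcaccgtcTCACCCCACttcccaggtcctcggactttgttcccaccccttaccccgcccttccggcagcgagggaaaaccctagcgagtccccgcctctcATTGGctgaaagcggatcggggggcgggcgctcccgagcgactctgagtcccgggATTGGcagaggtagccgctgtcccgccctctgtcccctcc
Hsd17b7, GRCm38.p6 chr1:169969156-169969455, minus strand: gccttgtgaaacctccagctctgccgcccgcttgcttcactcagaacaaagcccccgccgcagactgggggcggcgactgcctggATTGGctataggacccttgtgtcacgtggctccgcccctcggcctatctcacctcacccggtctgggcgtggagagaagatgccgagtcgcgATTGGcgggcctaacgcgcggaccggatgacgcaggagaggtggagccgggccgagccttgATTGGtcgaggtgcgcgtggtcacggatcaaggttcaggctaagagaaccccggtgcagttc
Ebp, GRCm38.p6 chrX:8193463-8193762, minus strand: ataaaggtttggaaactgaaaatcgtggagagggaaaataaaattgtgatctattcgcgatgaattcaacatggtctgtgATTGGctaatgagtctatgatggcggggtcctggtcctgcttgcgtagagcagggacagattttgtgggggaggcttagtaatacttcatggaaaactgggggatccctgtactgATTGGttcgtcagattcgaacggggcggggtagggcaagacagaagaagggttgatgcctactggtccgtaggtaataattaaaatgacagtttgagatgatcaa
Mvk, GRCm38.p6 chr5:114444019-114444318, plus strand: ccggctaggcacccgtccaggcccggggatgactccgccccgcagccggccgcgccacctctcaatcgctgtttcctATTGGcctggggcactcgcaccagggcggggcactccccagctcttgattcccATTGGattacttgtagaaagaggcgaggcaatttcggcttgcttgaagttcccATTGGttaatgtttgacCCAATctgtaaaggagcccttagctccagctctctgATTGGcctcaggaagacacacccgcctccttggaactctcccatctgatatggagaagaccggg
Elovl1, GRCm38.p6 chr4:118427843-118428142, plus strand: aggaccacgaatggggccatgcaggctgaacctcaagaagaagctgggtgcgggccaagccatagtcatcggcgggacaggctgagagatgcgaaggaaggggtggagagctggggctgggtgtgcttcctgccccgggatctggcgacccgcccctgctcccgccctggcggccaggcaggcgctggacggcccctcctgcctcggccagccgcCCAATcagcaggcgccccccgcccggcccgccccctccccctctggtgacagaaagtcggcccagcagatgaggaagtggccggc
Ugt8a, GRCm38.p6 chr3:125938603-125938902, minus strand: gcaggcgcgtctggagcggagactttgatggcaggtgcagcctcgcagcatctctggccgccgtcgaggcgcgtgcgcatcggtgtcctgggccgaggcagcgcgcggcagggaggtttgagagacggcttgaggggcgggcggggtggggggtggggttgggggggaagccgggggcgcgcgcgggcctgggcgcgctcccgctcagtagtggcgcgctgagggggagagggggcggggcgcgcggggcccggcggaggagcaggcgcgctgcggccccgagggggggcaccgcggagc

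Among fatty acid genes the size of the change varied widely by step. Of 9, 7 rose and 2 did not pass, and the changes ran from -0.03 to 2.95. The synthesis of palmitate itself showed no call. Acaca, the carboxylase that makes malonyl-CoA, read 9.47, 9.30 and 9.57 at P3 and 9.31, 9.39 and 9.54 at P14, a difference of -0.03 (95% interval -0.27 to 0.21, adjusted p = 0.819). Fasn, the fatty acid synthase, read 9.62, 9.78 and 9.57 at P3 and 9.59, 9.64 and 9.94 at P14, a difference of 0.07 (-0.23 to 0.37, adjusted p = 0.684). The ages overlapped for both genes. The intervals leave room for rises of 0.21 and 0.37 log2 units.

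Acly, which releases acetyl-CoA from citrate in the cytosol, read 10.22, 10.93 and 10.34 at P3 and 11.22, 11.20 and 10.91 at P14. It rose by 0.61 ± 0.14 (adjusted p = 0.0176), but the LSO array of P3 lay above the MNTB array of P14, and the call was lost without either MNTB array (highest adjusted p = 0.0676). Acly was the only gene of the 28 whose ages overlapped. The desaturase genes Scd1 and Scd2 make monounsaturated fatty acids, Scd2 being the form known from mouse brain. Scd1 rose by 0.72 ± 0.15 (adjusted p = 0.0126) and Scd2 by 0.29 ± 0.07 (adjusted p = 0.0161). Neither passed without either LSO array (highest adjusted p = 0.0568 and 0.0726), and Scd2 not without either MNTB array (0.128). As with Hmgcs1, the dimmer probe sets of both gave larger changes, 1.0 for Scd1 and 0.41 and 0.65 for Scd2.

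Elongases add carbon pairs to existing fatty acids. Elovl6, which lengthens palmitate, rose by 1.08 ± 0.09 and Elovl5, which lengthens polyunsaturated chains, by 1.05 ± 0.08 (adjusted p = 0.000754 and 0.000638). Elovl1 and Elovl7, elongases of saturated and very long chains, had larger rises. Elovl1 read 7.31, 7.08 and 6.97 at P3 and 9.88, 10.04 and 10.28 at P14, a rise of 2.95 ± 0.16 (adjusted p = 0.000378), or 7.73-fold. Elovl7 read 9.49, 8.67 and 9.13 at P3 and 11.10, 11.44 and 11.73 at P14, a rise of 2.33 ± 0.22 (adjusted p = 0.00102). In both genes the ages were far apart, and Elovl7 was lowest in LSO at P3 and in VCN at P14. All 4 probe sets of Elovl1 (2.61 to 3.01) and all 6 of Elovl7 (2.33 to 3.50) rose by more than 2 log2 units. Elovl4, another elongase of very long chains and not one of the 36, fell by 0.26 ± 0.08 (adjusted p = 0.0452). Elovl4 passed in 0 of the 6 fits that leave out an array (adjusted p = 0.108 to 0.155). Those fits take out each nucleus in turn, by either of its arrays, and fewer arrays alone can cost a call.

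All 6 genes of ceramide and galactolipid synthesis rose, with a median of 2.37, or 5.16-fold. Fa2h, which hydroxylates the fatty acid of myelin galactolipids, read 8.72, 7.86 and 8.57 at P3 and 11.64, 11.77 and 12.01 at P14. The rise of 3.43 ± 0.18 (adjusted p = 0.000378), or 10.8-fold, was the largest of the list. Ugt8a, the transferase that makes galactosylceramide, read 10.25, 8.75 and 9.40 at P3 and 12.51, 12.57 and 12.68 at P14, a rise of 3.12 ± 0.27 (adjusted p = 0.000825). Both genes were lowest in LSO at P3 and lay closer together over the nuclei at P14. Cers2, the ceramide synthase for very long acyl chains, went from 8.51, 8.28 and 8.07 to 10.79, 10.87 and 11.14, a rise of 2.65 ± 0.16 (adjusted p = 0.000389). MNTB was the lowest nucleus at P3 and the highest at P14. Gal3st1, the sulfotransferase that turns galactosylceramide into sulfatide, went from 6.73, 6.83 and 6.95 to 8.85, 8.74 and 9.18, a rise of 2.09 ± 0.12 (adjusted p = 0.000389).

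The other listed genes of ceramide synthesis had smaller rises. Degs1, the desaturase that yields ceramide, rose by 0.69 ± 0.07 (adjusted p = 0.00105), and its dimmer probe set by 1.24. Sptlc2, a subunit of serine palmitoyltransferase, rose by 0.42 ± 0.09 (adjusted p = 0.0115), not without either MNTB array (0.39, highest adjusted p = 0.0827). In all, 7 of the 35 genes rose by at least 2 log2 units, as did 1.36% of tested genes: Fa2h, Ugt8a, Elovl1, Cers2, Elovl7, Gal3st1 and Ebp.

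**Figure D3:**
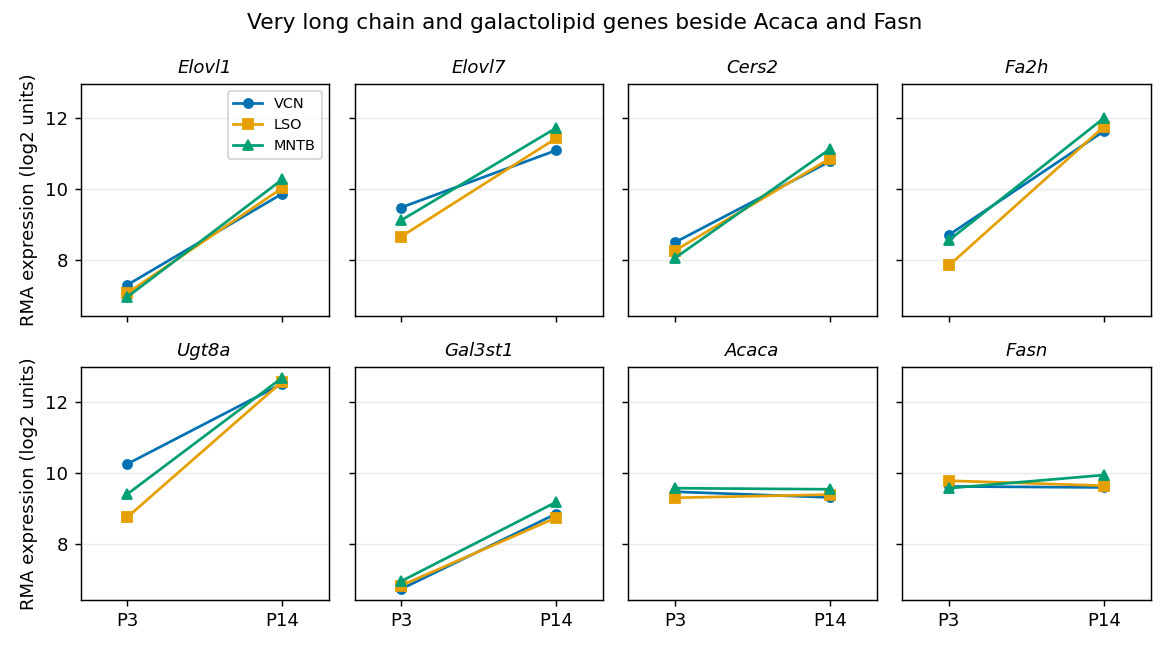
Levels (y axis, log2 units) at P3 and P14 in VCN, LSO and MNTB, a line for each nucleus, for 6 genes of very long chain and galactolipid synthesis and for Acaca and Fasn. The first 6 rise by 2.09 to 3.43 on average, Acaca and Fasn by -0.03 and 0.07, and the lines of Ugt8a start 1.5 apart and end 0.17 apart.

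Set against each other as wholes, the sterol steps had a median change of 0.85 and the fatty acid and galactolipid steps one of 1.05. The difference of the medians, sterol minus the other side, was -0.36 in VCN against -0.04 in LSO and -0.10 in MNTB. It was -0.19 for the mean over nuclei and turned to 0.06 when probe sets ending in _x_at could represent a gene, so its sign depended on the choice of probe sets. Without either VCN array it was -0.07, and with 1 array left out it ranged from -0.26 to -0.07. Changes ran from 0.07 to 2.05 among 17 sterol genes and from -0.03 to 3.43 among 15 of the other side. Of the sterol genes 1 rose by at least 2 log2 units, and of the others 6. These are counts over chosen genes that share arrays, with no test of the sides.

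**Figure D4:**
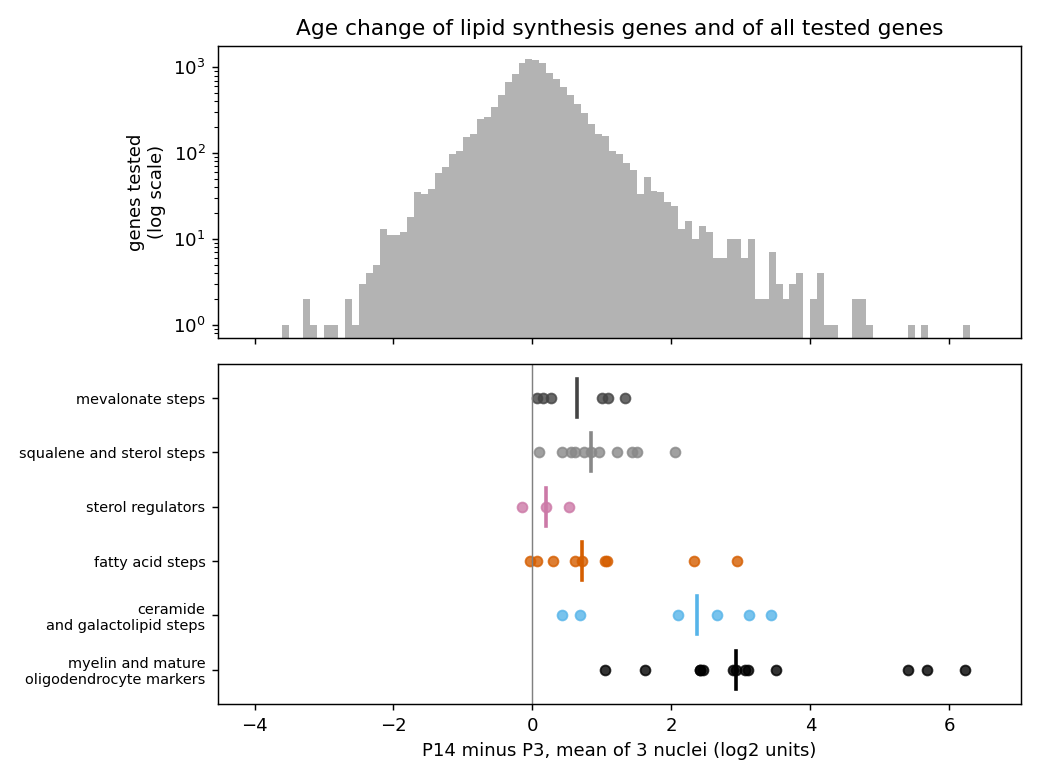
Top, number of tested genes (y axis, log scale) by their mean difference between P14 and P3 (x axis, log2 units). Bottom, the genes of each step and, for comparison, 13 myelin and mature oligodendrocyte markers on the same axis, with a bar at the median. The medians run from 0.20 for the regulators through 0.63, 0.72 and 0.85 to 2.37 for ceramide and galactolipid steps and 2.93 for the markers.

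Markers of oligodendrocytes moved with age too. Of 15 listed, 13 were measured and all 13 rose, with a median of 2.93. Their summed level on the linear scale was 9970 to 22800 over the P3 arrays and 65200 to 71900 over the P14 arrays. That sum is carried mostly by the brightest probe sets and is not a measure of cell content. The lowest value of any of these markers was that of Ermn in MNTB at P3 (4.31), where the unspiked controls reached 4.10. Precursor markers were mixed, with 4 of 7 higher and 2 lower. Among neuron markers 1 of 8 rose and 4 fell, and among astrocyte markers 5 of 9 rose and 2 fell. Markers of microglia (4 of 6), of endothelium and pericytes (4 of 5) and of meninges and choroid plexus (3 of 4) rose as well, and none of these lists had a member that fell. Both tested red blood cell markers rose, and of 2 tested Schwann cell markers 1 rose and 1 fell. These lists are short, and of all tested genes 23.4% were called higher and 17.7% lower. In pooled tissue, more oligodendrocytes and more RNA of these genes in each cannot be told apart, and the part of any cell type in the rises was not tested.

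Within single nuclei, 13 of 35 genes rose by 1 log2 unit or more in VCN, 12 in LSO and 18 in MNTB. The shares over all tested genes were 8.62%, 6.81% and 6.82%. The changes of the 35 genes ran alike in the nuclei, with Pearson correlations across genes of 0.93 for VCN and LSO, 0.95 for VCN and MNTB and 0.97 for LSO and MNTB. The same correlations over all tested genes were 0.79, 0.80 and 0.87. Genes are not independent replicates, and no p is given.

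The nuclei also differed in the size of the change, a difference that was not tested because each combination has 1 array. The change was largest in MNTB for 14 of 17 sterol genes and 24 of all 35, against 27.7% of tested genes. It was smallest in VCN for 11 of 17 and 21 of 35, against 31.9%. The median change of the sterol steps was lowest in VCN at 0.68, followed by LSO at 0.82 and MNTB at 1.06. Lss is an example, with 0.64, 0.96 and 1.27. At P14 MNTB had the highest level of the 3 nuclei for 14 of 17 sterol genes and 29 of 35 in all, against 31.0% of tested genes. All genes of a nucleus and age share 1 array, so these counts are not independent of each other. Among the myelin markers the change was smallest in VCN for 12 of 13 and largest in MNTB for 5 of 13.

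At P3 some of these genes differed between nuclei by more than others, as values without a test. Ugt8a was 1.5 log2 units higher in VCN than in LSO at P3, and the range over nuclei was 0.17 at P14. For Fa2h the range went from 0.86 to 0.37 and for Elovl7 from 0.81 to 0.63. These 3 genes, with Ebp and Sc5d, made up the 5 of 35 with the order VCN over MNTB over LSO at P3. That is about the same share as the 14% of all tested genes with this order. The same order was found in 9 of 13 myelin markers, among them Mag, the myelin-associated glycoprotein gene, at 9.83, 8.54 and 7.76 in that order. How far myelin content went with the levels of lipid genes at P3 was not tested. The narrowing was not general: the range over nuclei was smaller at P14 for 13 of 35 lipid genes, against 55.8% of tested genes. Ranges over nuclei at P3 were 0.09 for Hmgcs1 and 0.01 for Msmo1.

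No lipid gene passed a test between nuclei over both ages. By limma 0 of 35 passed for MNTB minus LSO, MNTB minus VCN and VCN minus LSO, where 0.162%, 0.602% and 0.37% of all tested genes did. At an unadjusted p under 0.05 there were 1, 2 and 1 of 35, against 6.80%, 9.53% and 8.98% of tested genes. They were Acly, at -0.43 ± 0.17 for MNTB minus LSO (limma adjusted p = 0.727), Elovl6 at 0.28 ± 0.11 and Sptlc2 at 0.26 ± 0.11 for MNTB minus VCN (adjusted p = 0.514 and 0.517), and Tm7sf2 at -0.44 ± 0.15 for VCN minus LSO (adjusted p = 0.465). Ugt8a differed by 0.72 between VCN and LSO over both ages (95% interval -0.10 to 1.54). It passed when the VCN array of P14 was left out (1.37, adjusted p = 0.0401) and under no other alternative that gives this contrast. Leaving out that array leaves VCN represented by P3.

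Other genes of these pathways were read from lists that do not hold the 36, to be set beside the 23.4% of all tested genes called higher and the 17.7% called lower. Of 10 further genes of sterol synthesis and uptake, 5 rose and 0 fell, with a median of 0.35. Erg28, known in yeast as a scaffold of the demethylation enzymes, rose by 0.86, the lysosomal cholesterol exporter gene Npc1 by 0.84, Insig2 by 0.83 and Npc2 by 0.62. Of 9 genes of sterol export and turnover, 4 rose and 1 fell, with a median of 0.18. The sterol hydroxylase gene Cyp27a1 rose by 2.37, the lysosomal lipase gene Lipa by 1.46 and the transporter gene Abcg1 by 1.11, while the transporter gene Abca1 fell by 0.94. Apoe, the lipoprotein gene, had a difference of -0.10 and did not pass.

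Of 20 further fatty acid genes, 9 rose and 4 fell, with a median of 0.16. Acss2, which makes acetyl-CoA from acetate, rose by 1.65, the lipoprotein lipase gene Lpl by 1.61, the acyl-CoA synthetase gene Acsl3 by 1.35 and Hacd2, a dehydratase of the elongation cycle, by 1.12. Among 18 further sphingolipid genes, 7 rose and 4 fell, with a median of 0.18. Other ceramide synthase genes fell or did not pass. Cers4 read 10.65, 10.50 and 10.25 at P3 and 9.24, 9.67 and 9.09 at P14, a fall of 1.14 ± 0.13 by limma (adjusted p = 0.00168). Cers6 read 9.09, 9.25 and 8.73 at P3 and 8.63, 8.18 and 7.48 at P14 and fell by 0.93 ± 0.17 (adjusted p = 0.00826). Cers5 had a difference of -0.02 (adjusted p = 0.876). Smpd3, a neutral sphingomyelinase gene, fell by 1.01, and Kdsr, the reductase after serine palmitoyltransferase, rose by 0.91.

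Of 6 ether lipid genes, whose plasmalogen products are also abundant in myelin, 3 rose and 1 fell. Tmem189, the plasmalogen desaturase gene, rose by 1.2 and the fatty acyl reductase gene Far1 by 0.52, while Far2 fell by 0.94. Gnpat, the acyltransferase that opens ether lipid synthesis, rose by 0.49. Agps, the next enzyme, had a difference of -0.20 and did not pass.

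Probe sets of 1 gene did not always give the same size. The 35 genes had 81 probe sets, and 12 genes had 1 each. Of 20 genes that rose and had several, all probe sets were above 0 for 17. In the other 3, Fdft1, Msmo1 and Elovl6, the sets at or below 0 had means of 5.02 to 6.00. Across the 20, 10 probe sets changed by less than 0.2, and their means lay between 2.19 and 6.00. The chosen set gave the smallest change of the gene's sets in 7 of 20 and the largest in 6.

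**Figure D5:**
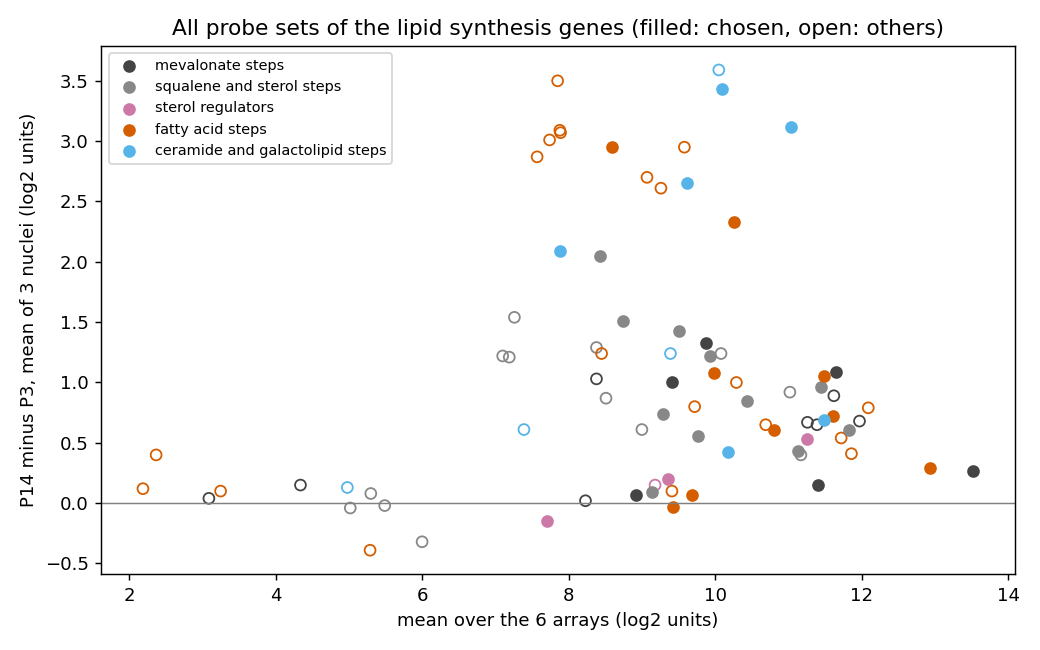
Difference between P14 and P3 (y axis, log2 units, mean of 3 nuclei) of each of 81 probe sets against its mean over the 6 arrays (x axis, log2 units), coloured by step, with the chosen set of a gene filled. Sets with a mean up to 6.00 lie near 0, between -0.39 and 0.40, and the largest change, 3.59, is that of an Ugt8a set with a mean of 10.05.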

How the data were processed

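The deposited values are log2 expression per probe set, made by the authors with RMA, per the submitters' processing notes. The sources used here do not give its version. Of each RNA 20 ng went into Nugen Ovation Pico amplification, per the labels' protocols. The table held 45101 probe sets, 64 of them controls. By the platform annotation 34945 probe sets named a single gene (34741 matched in RefSeq), 932 named several genes and 9160 are unnamed here.

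Genes with a mean at or above the 40th percentile of probe sets (5.57) were tested. limma 3.58.1 in R 4.3.3 was fitted over all 6 arrays with age and nucleus as additive terms, variances moderated with an intensity trend, two-sided tests and Benjamini-Hochberg adjustment at 0.05. Residual degrees of freedom were 2, with 3.95 added by the prior. The fit was run on simulated data, which recovered 99% of genes changed by 1 log2 unit and 100% of those changed by 2 among 12958 (15 false of 214 calls). The simulation used the same additive model, normal noise from the fitted variances and 100 genes changed by each amount. It cannot show how the fit does where nuclei change differently or where processing went together with age.

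All 36 members could be named. Of other lists up to 4 genes past the test were named, those of largest change. Apoe, Elovl4, Cers5, Agps, Mag, Ttr and Slc6a5 were added after their values were seen. The members and lists were chosen with earlier results of these data known. Alternatives changed the filter, the probe set rule, the scaling, the floor, the trend, the nucleus term and the arrays included. The number of arrays limits precision.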

Additional observations from a re-analysis of the deposited data

How the results depend on the processing

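In all, 16 alternatives were run. Changing the filter, the floor, the trend or the nucleus term left the differences of these genes as they were. Those alternatives bear on the p-values alone. Leaving out either array of a nucleus gives the same difference, so these fits repeat each other in pairs. The 28 genes that rose kept a positive difference in each alternative. The number that passed ranged from 23 to 28 when 1 array was left out and from 26 to 28 otherwise, and 0 fell in any. Of the single-gene differences, 528 kept direction and call, 21 no longer passed and 11 changed sign, all of these in genes without a call. These tallies count the unchanged and repeated differences separately, so they are not independent support. With names ending in _x_at eligible, the median change of the fatty acid and galactolipid steps was 0.79 and the difference of the sides 0.06. Elovl5, the gene at the median of that side, was then read through another probe set and changed by 0.79 instead of 1.05. Other probe sets also represented Acly, Elovl1, Fdft1 and Hsd17b7, but their changes moved neither median. Acaca was at 0.03 when its probe sets were summarised by their median. Mvk was at -0.02 with quantile normalization and, with arrays centred on the median of tested genes (an alternative chosen after seeing the data), at -0.03, with Tm7sf2 at 0.00 and Fasn at -0.02. With 1 array left out, Acaca ranged from -0.10 to 0.03, Tm7sf2 from -0.06 to 0.16 and Fasn from -0.08 to 0.17, and the number of genes differing for VCN minus LSO from 0 to 1. Hmgcs1 and Scd2 did not pass without the intensity trend (0.27, adjusted p = 0.0864, and 0.29, adjusted p = 0.0767) or with that centring (0.17 and 0.20, adjusted p = 0.0724 and 0.0739).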
